A study of Mus musculus with 10 samples.

Results

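The Schlafen gene cluster of the mouse is a run of 7 neighbouring protein-coding genes on chromosome 11, namely Slfn5, Slfn9, Slfn8, Slfn2, Slfn1, Slfn4 and Slfn3 in the order of the chromosome. They were taken from 21755 protein-coding genes of the GENCODE M21 annotation (GRCm38, which is mm10), and no other protein-coding gene starts between the first and the last of them. A chromatin loop was counted at the cluster when either of its 10 kb anchor bins overlapped the 100 kb on either side of the transcription start site (TSS) of a member. The joined windows run from chr11:82851349-83291330, which is 440.0 kb. Hi-C, in which DNA ends near each other inside the nucleus are ligated and sequenced as pairs, had been run on bone marrow-derived macrophages of wild type female C57BL/6 mice aged 2 to 3 months. Over the 5 groups, 129 distinct pairs of bins were called as loops at the cluster, out of lists of 53424 to 67728 loops.

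All groups were grown in M-CSF at 20 ng/ml and treated on day 6 of differentiation. M0[CTR] macrophages were untreated. M2[IL-4] macrophages received IL-4 at 20 ng/ml for 24 h, and M2p[pIL-4] macrophages received the same, were washed and then rested for 24 h without the cytokine. The IFNG group received IFNG at 20 ng/ml for 3 h, and the pIL-4 + IFNG group received IFNG in the same way after IL-4 priming and rest. The primed groups were also kept longer in culture, so the time and the priming cannot be told apart. Each group had 2 replicate samples but only 1 loop list, in which the replicates appeared merged. No difference below therefore has a replicate check and none has a p-value. The 95% intervals cover counting error only, and loops in touching bins are not independent, so true errors are wider. Hi-C holds no RNA, so neither expression of the Schlafen genes nor macrophage markers could be examined.

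Schlafen genes are a family found in mammals that multiplied by tandem duplication in rodents. Many are induced by interferons, and the family is known for restricting viruses and for holding lymphocytes and myeloid cells in a quiescent state. The short proteins Slfn1 and Slfn2 have no helicase domain, Slfn3 and Slfn4 are of intermediate length, and Slfn5, Slfn8 and Slfn9 are long proteins with a helicase-like domain. A chromatin loop is here a pair of bins listed as a loop from the Hi-C contacts. Such pairs can join genes, enhancers and boundary elements. The rule by which these lists called a pair is not given, and many listed pairs touch each other.

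Interferon signals reach promoters through the interferon-stimulated response element (ISRE), bound by IRF factors among others, and through the gamma-activated site (GAS). RefSeq promoters (GRCm38.p6) were at hand for 7 of the 7 members, with 2 start sites for Slfn8. The ISRE core GAAANNGAAA, searched on both strands of the 250 bases before and 50 bases after each start, was present in the promoters of Slfn5, Slfn9 and Slfn8, the 3 members at the low-coordinate end of the cluster. It was absent from the windows of Slfn2, Slfn1, Slfn4 and Slfn3. The core occurs in 3.44% of 32851 mouse promoters of 300 bases. The GAS letters TTCNNNGAA, present in 8.30% of those promoters, were in none of the members' windows, which says nothing about the factor elsewhere in the locus. The 250 bases before the RefSeq start of the 3 genes with a match are shown, written 5′ to 3′ on the strand of the gene with the ISRE core in capitals. The first lies at chr11:82951852-82952101 (+ strand), with its start 753 bases inside the GENCODE gene, the second at chr11:82991831-82992080 (- strand) and the last at chr11:83020811-83021060 (- strand).
Slfn5: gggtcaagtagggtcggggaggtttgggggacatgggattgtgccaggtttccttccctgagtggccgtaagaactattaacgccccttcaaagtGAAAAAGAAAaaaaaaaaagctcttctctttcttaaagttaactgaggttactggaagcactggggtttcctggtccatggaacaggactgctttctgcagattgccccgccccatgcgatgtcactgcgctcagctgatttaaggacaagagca
Slfn9: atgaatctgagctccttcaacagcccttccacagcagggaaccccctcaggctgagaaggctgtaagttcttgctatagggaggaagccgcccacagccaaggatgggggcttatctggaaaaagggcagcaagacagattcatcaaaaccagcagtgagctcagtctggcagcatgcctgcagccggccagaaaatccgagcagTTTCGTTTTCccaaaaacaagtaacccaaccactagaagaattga
Slfn8: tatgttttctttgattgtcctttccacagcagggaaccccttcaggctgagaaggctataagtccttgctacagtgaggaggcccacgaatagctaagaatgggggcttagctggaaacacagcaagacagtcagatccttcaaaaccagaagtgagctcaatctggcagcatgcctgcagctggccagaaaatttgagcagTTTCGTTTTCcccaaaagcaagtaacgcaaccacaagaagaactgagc

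The Slfn9 and Slfn8 sequences align with 80.0% identity, and their ISRE cores, on the opposite strand, begin at positions -45 and -48 from the start. Every other pair of the 7 promoters had at most 50% identity. In Slfn5 the core begins at -155, on the strand of the gene.

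The loops at the cluster numbered 32 in M0[CTR], 18 in M2[IL-4], 50 after washout in M2p[pIL-4], 61 in IFNG alone and 64 in pIL-4 + IFNG. The lists differ in length, and as a share of its list the cluster held 0.0599% of loops in M0[CTR] (95% Wilson interval 0.0424 to 0.0845%), 0.0309% in M2[IL-4] (0.0195 to 0.0488%), 0.0738% in M2p[pIL-4] (0.0560 to 0.0973%), 0.111% in IFNG (0.0863 to 0.142%) and 0.0955% in pIL-4 + IFNG (0.0748 to 0.122%). The IFNG list thus held the highest share and the M2[IL-4] list the lowest. Scaled to the mean list length, the loop numbers were 36.1, 18.6, 44.5, 66.8 and 57.6 in the same order, in which all further strings of 5 values are given. The loops seen after IFNG were longer. The median span at the cluster was 145 kb in M0[CTR], 135 kb in M2[IL-4] and 145 kb after washout in M2p[pIL-4], against 230 kb in IFNG alone and 240 kb in pIL-4 + IFNG. The median over each whole list lay between 160 and 180 kb. Loops of 200 kb or more were 14 of 32, 6 of 18, 20 of 50, 36 of 61 and 38 of 64.

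Each member was counted within 100 kb of its own TSS, so that neighbours share many loops. Slfn5, whose product is found in the nucleus, had 30 loops in M0[CTR], just 15 in M2[IL-4], 46 after washout in M2p[pIL-4], 58 in IFNG alone and 59 in pIL-4 + IFNG. Slfn9 had 24, 10, 34, 49 and 54 loops, in the same order of lists. Slfn8 had 17, 6, 23, 36 and 42. The lowest number at each of these long-form genes was that of M2[IL-4] and the highest that of pIL-4 + IFNG. Slfn2, which is needed for the quiescence of T cells and monocytes, had the fewest loops of the members in every list, at 11, 4, 14, 18 and 22. Slfn1, known for restraining the growth of thymocytes, had 18, 9, 24, 32 and 35. Slfn4, an interferon-induced gene of myeloid cells, had 19, 10, 27, 40 and 47, and its neighbour Slfn3 had 19, 10, 26, 43 and 48. In these unscaled and partly shared numbers the order of the lists was the same at all 7 genes.

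**Figure D1:**
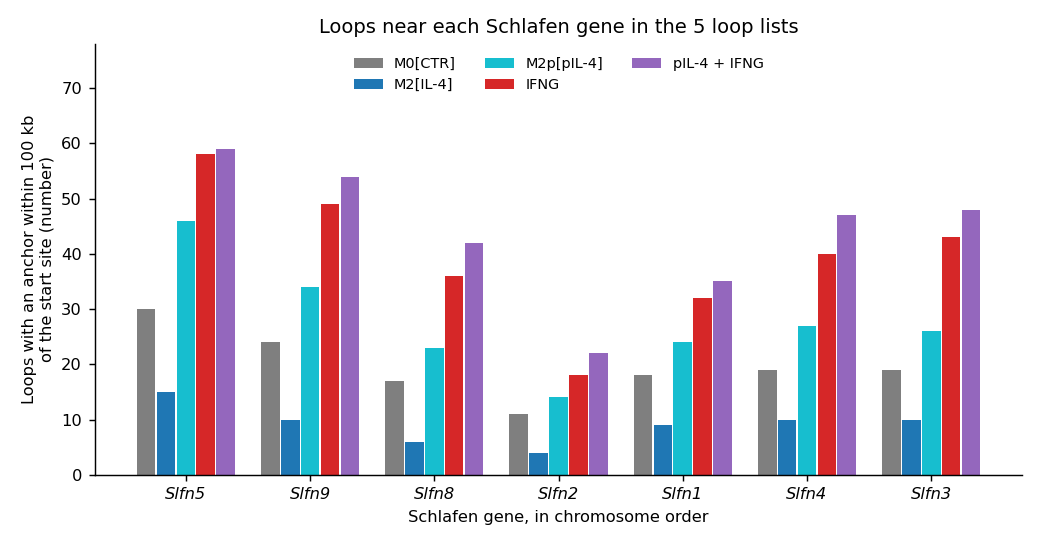
Number of loops with an anchor within 100 kb of the start site (y axis) of each Schlafen gene in chromosome order (x axis), with 1 bar for each of the 5 loop lists and no error bars, since each group has 1 list. At every gene the M2[IL-4] bar is the lowest and the IFNG and pIL-4 + IFNG bars are the highest, from 18 and 22 at Slfn2 to 58 and 59 at Slfn5.

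The first comparison asked how loops differed after IFNG in unprimed macrophages. All 7 members had a scaled loop number at least 1.5-fold higher in IFNG than in M0[CTR]. A fold of this size upward was seen at 12.9% of all protein-coding genes and at 6.91% of the 9751 genes with a mean of 10 or more loops. The log2 ratio, with a pseudocount of 1, ran from 0.63 at Slfn2 (interval -0.49 to 1.90) to 1.10 at Slfn3 (0.33 to 2.00), and the median member stood at 0.96 against 0.00 over all genes, as in each of the 6 comparisons, and -0.04 over genes with 10 or more loops. For the cluster as a whole the ratio was 0.87 (0.25 to 1.55), and among loops under 200 kb, an alternative chosen after seeing the data, it was 0.46 (-0.46 to 1.44), short of 1.5-fold. The intervals of Slfn2 and Slfn1 (0.76, -0.09 to 1.71) include 0.

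In IFNG alone the higher number of loops went with larger fields of touching bin pairs. When bin pairs that touch in a list were merged into patches, the cluster held 16 patches in M0[CTR], 9 in M2[IL-4], 20 after washout in M2p[pIL-4], 12 in IFNG alone and 21 in pIL-4 + IFNG. The IFNG over M0[CTR] ratio then turned to -0.43 (-1.67 to 0.72). Merging also joins separate loops where calls are dense, so it cannot tell a wider field from more separate loops. The 61 loops of IFNG lay in patches of 5.08 bin pairs on average, compared with 2.00 in M0[CTR], while the whole lists averaged 2.82 and 2.81. In M0[CTR] no patch at the cluster reached 10 bin pairs. In M2p[pIL-4], 15 of 50 bin pairs lay in a patch of 10 or more, within the flank. In IFNG 35 of 61 did, and in pIL-4 + IFNG 30 of 64. As shares these were 0, 0, 30, 57.4 and 46.9%, whereas 40.2, 41.2, 44.4, 41.2 and 44.0% of the whole lists lay in such patches. The pIL-4 + IFNG loops, at 3.05 bin pairs per patch against 2.97 in the list, were thus near their list, the IFNG loops lay above theirs and the M0[CTR] and M2[IL-4] loops below.

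The largest patch of both IFNG lists joined the same ends of the cluster. In the IFNG list it held 25 bin pairs and 602 contacts and linked chr11:82900001-82990000, from Nle1 and Unc45b through Slfn5 to the body of Slfn9, with chr11:83170001-83240000, which holds Slfn4 and Slfn3. In the pIL-4 + IFNG list it held 30 bin pairs and 747 contacts and linked chr11:82900001-82980000 with chr11:83170001-83260000. In M0[CTR] the largest patch between these ends held 6 bin pairs and 167 contacts, and it held 5 bin pairs with IL-4 and 5 after washout. Thus the central genes Slfn8, Slfn2 and Slfn1 lay between the anchors of the patch.

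To describe this, the locus was divided at gene borders after the loops had been seen, which makes the following counts a description. Loops from the segment Nle1 to Slfn9 (chr11:82900001-83000000) to the segment Slfn4 to Slfn14 (chr11:83170001-83290000) numbered 13 in M0[CTR], 5 in M2[IL-4], 17 after washout in M2p[pIL-4], 37 in IFNG alone and 35 in pIL-4 + IFNG. They spanned 190 to 370 kb. The log2 ratio was 1.47 (0.52 to 2.50) for IFNG over M0[CTR] and 1.06 (0.18 to 1.99) for pIL-4 + IFNG over M2p[pIL-4]. Loops within the flank from Cct6b to Fndc8 (chr11:82730001-82900000) numbered 9, 8, 21, 13 and 11, with the highest value in M2p[pIL-4] and not after IFNG. Loops within the segment Slfn8 to Slfn1 numbered 5, 3, 4, 4 and 6. Loops from that segment to Slfn4 to Slfn14 numbered 0, 0, 2, 3 and 7.

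**Figure D2:**
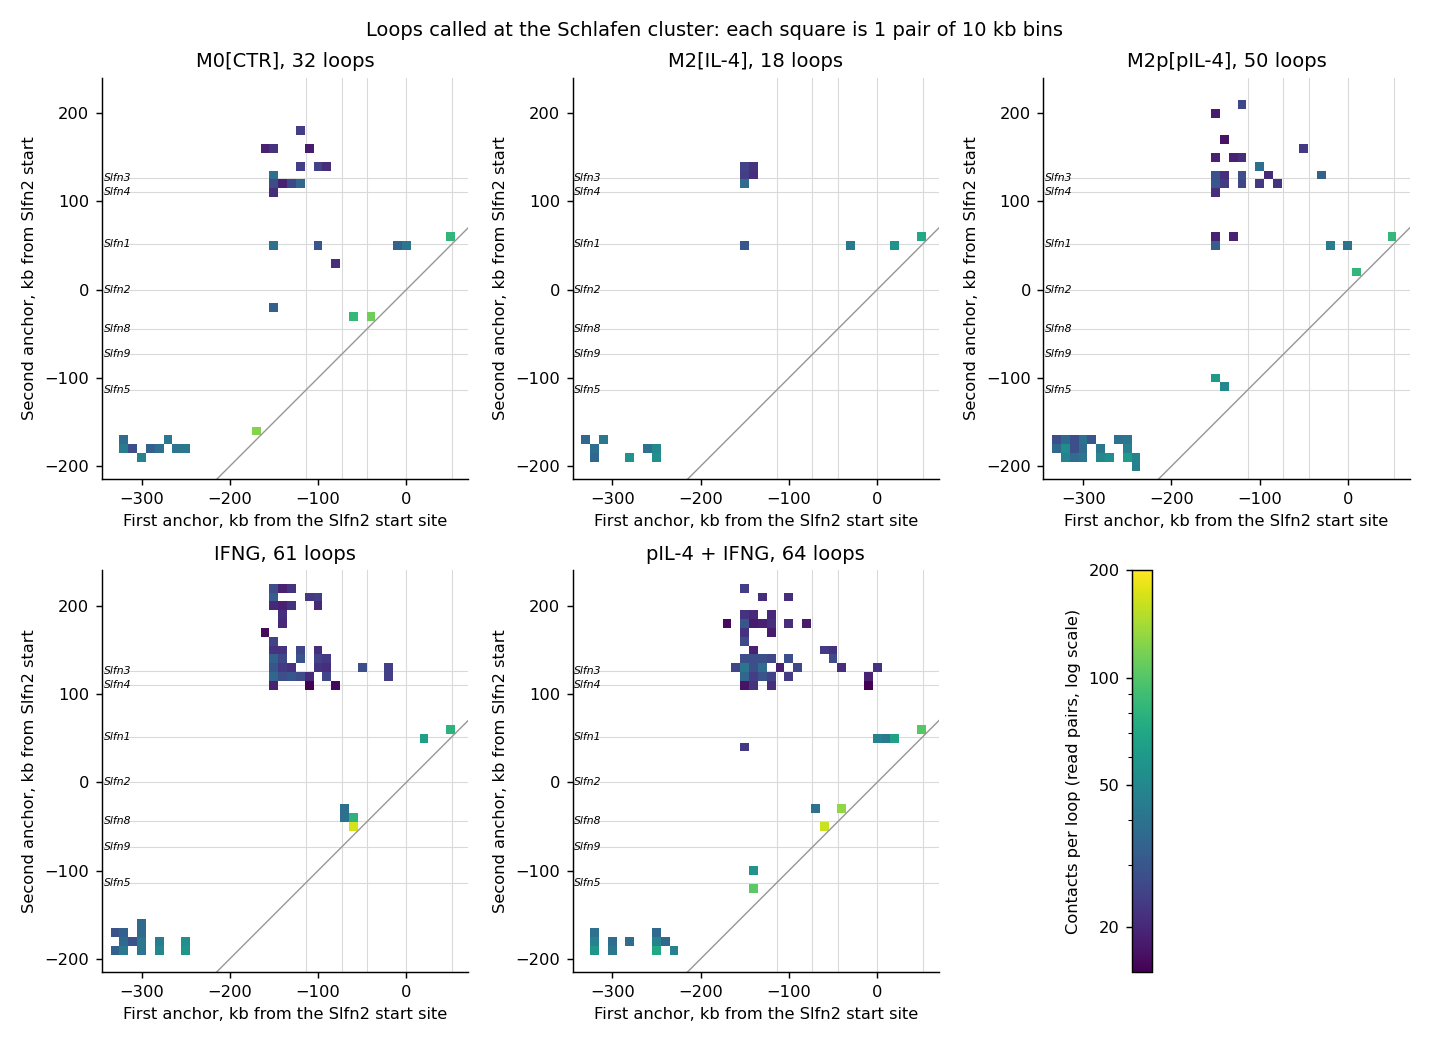
Map of the loops at the cluster in each of the 5 lists, with the position of the first anchor (x axis) and of the second anchor (y axis) in kb from the Slfn2 start site. Each square is 1 pair of 10 kb bins coloured by its contacts on a log scale, and grey lines mark gene starts. The squares at the top left, which join the Slfn5 end to the Slfn4 and Slfn3 end, number 37 in IFNG and 13 in M0[CTR].

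The loops between the ends had about as many contacts each as other loops of their spans. Their median contacts were 24 in M0[CTR], 24 in M2[IL-4], 22 after washout in M2p[pIL-4], 22 in IFNG alone and 23 in pIL-4 + IFNG, near the median of 24 or 25 of all loops of the same spans in each list. Of the 37 in IFNG, 10 had identical bins in the M0[CTR] list and 29 had a match there with both anchors within 25 kb. Over the whole IFNG list, with loops of all spans, 25079 of 55012 had identical bins in M0[CTR] and 87.0% had such a match. The 27 bin pairs not called in M0[CTR] had a median of 22 contacts in IFNG and the 10 called in both had 27.5. At those 10 pairs the contacts summed to 271 in IFNG and 259 in M0[CTR], a scaled log2 ratio of 0.02 (-0.23 to 0.27). The lists give no contacts for bin pairs that were not called, so how many contacts M0[CTR] held at the other 27 was not analysed here.

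Gene starts were anchors to different degrees. The bin with most loops was that of the TSS of Unc45b (chr11:82910001-82920000), a chaperone for muscle myosin next to Slfn5, with 6 in M0[CTR], 4 in M2[IL-4], 8 after washout in M2p[pIL-4], 9 in IFNG alone and 10 in pIL-4 + IFNG. The next bin, inside the same gene, had 1, 2, 4, 8 and 9. At the other end, the bin of the Slfn3 TSS (chr11:83190001-83200000) had 1, 2, 5, 7 and 8 loops, and the bin before it, in the body of Slfn4, had 4, 1, 6, 7 and 6. The Slfn4 TSS bin had 1, 0, 2, 3 and 4. These bins rank both IFNG lists above M0[CTR]. The Slfn1 TSS bin (chr11:83110001-83120000) behaved otherwise, with 5, 4, 4, 2 and 4 loops and the lowest number in IFNG. The TSS bins of Slfn5, Slfn9, Slfn8 and Slfn2 held 0 to 3 loops in any list, so the 3 promoters with an ISRE core were not themselves frequent anchors. A CTCF consensus of 14 bases, allowing 1 mismatch, matched in 0 of the 45 bins of the window and in 1.52% of 11875 bins of chromosome 11. At so low a share, 0 matches in 45 bins do not set the window apart. Sites further from this consensus were not searched for, and CTCF binding was not examined.

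Slfn14, a ribosome-associated endoribonuclease gene of the family that lies beyond the members, supplied a further end point. Its TSS bin (chr11:83280001-83290000) held 0, 1, 0, 4 and 1 loops, and the bin in its body held 0, 1, 1, 4 and 2. In both bins the M2[IL-4] loop and 1 of the 4 IFNG loops were the pair of these adjacent bins, with 171 and 193 contacts. That pair lies inside Slfn14 and does not reach a member. The bins of the pseudogene between Slfn3 and Slfn14 differed between the IFNG lists. The bin chr11:83240001-83250000 had 1 loop in M0[CTR], 0 in M2[IL-4], 0 after washout in M2p[pIL-4], 1 in IFNG alone and 7 in pIL-4 + IFNG. It was picked out after its values had been seen.

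The second comparison concerned IL-4 itself and shares the M0[CTR] list with the first. All 7 members had a scaled loop number at least 1.5-fold lower in M2[IL-4] than in M0[CTR], against 10.7% of all genes and 5.34% of genes with 10 or more loops. The log2 ratio lay between -1.49 at Slfn8 (-3.26 to -0.22) and -0.98 at Slfn4 and Slfn3 (-2.32 to 0.13), with a median of -1.08. For Slfn2, Slfn1, Slfn4 and Slfn3, with 4 to 10 loops in M2[IL-4], the interval includes 0. The cluster ratio was -0.92 (-1.88 to -0.08), and with touching bin pairs merged it was -0.88 (-2.31 to 0.31). Only 14 of the 45 bins of the window carried an anchor in M2[IL-4], compared with 27 in M0[CTR]. None of the bins from 82930001 to 83030000, which hold Slfn5, Slfn9 and Slfn8, did so.

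After washout more loops were called than with IL-4. M2p[pIL-4] had all 7 members at least 1.5-fold above M2[IL-4], where 12.5% of all genes and 4.9% of those with 10 or more loops passed, with a median log2 ratio of 1.34 and a cluster ratio of 1.21 (0.45 to 2.12). With touching bin pairs merged the cluster ratio was 0.94 (-0.18 to 2.33), so that the interval includes 0. Against M0[CTR], 0 of the 7 passed in either direction, while 13% of all genes were higher and 7.72% lower. That median was 0.11 and the cluster ratio 0.29 (-0.37 to 0.99). Both comparisons use the M2p[pIL-4] list, and the M2[IL-4] list is also shared with the comparison above. Of the 50 loops of M2p[pIL-4], 15 were in the same bins as a loop of M0[CTR], beside 28584 of 67728 over the whole list. Within 25 kb, 42 had a match in M0[CTR], or 84.0%, near the 85.9% of the whole M2p[pIL-4] list. The flank from Cct6b to Fndc8 held 21 loops in M2p[pIL-4] and 9 in M0[CTR].

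The last comparisons asked whether priming alters the response to IFNG. Relative to M2p[pIL-4], pIL-4 + IFNG was at least 1.5-fold higher at 5 of 7 members, where 10.7% of all genes and 5.91% of those with 10 or more loops passed. These were Slfn9 (0.67, 0.04 to 1.35), Slfn8 (0.85, 0.12 to 1.69), Slfn2 (0.63, -0.36 to 1.75), Slfn4 (0.79, 0.10 to 1.55) and Slfn3 (0.87, 0.18 to 1.65). Slfn5 (0.37, -0.21 to 0.96) and Slfn1 (0.54, -0.23 to 1.37) did not pass. The cluster ratio was 0.36 (-0.18 to 0.94). This value depended on the loops counted. It was 0.86 (0.21 to 1.59) with a window of 50 kb, the same with both anchors inside the cluster window, and 0.74 (0.06 to 1.49) with a window of 25 kb, all past 1.5-fold, but 0.08 (-0.87 to 1.04) with touching bin pairs merged. It was 0.91 (0.13 to 1.81) among loops of 200 kb or more and -0.19 (-1.01 to 0.61) among shorter loops, a split chosen after seeing the data.

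Between pIL-4 + IFNG and IFNG, 0 of 7 members passed in either direction, and 11.7% of all genes were higher and 8.29% lower. The member ratios lay between -0.26 at Slfn5 and 0.00 at Slfn2, and the cluster ratio was -0.21 (-0.74 to 0.32). With touching bin pairs merged it was 0.56 (-0.49 to 1.76). Of the 61 IFNG loops, 60 had a match in pIL-4 + IFNG within 25 kb, and 61 of the 64 pIL-4 + IFNG loops had one in IFNG. These shares of 98.4% and 95.3% stood beside 90.8% and 86.5% for the whole lists. In the M2[IL-4] list, by contrast, only 32 of the 61 IFNG loops had a match, or 52.5% compared with 87.9% over the whole IFNG list.

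**Figure D3:**
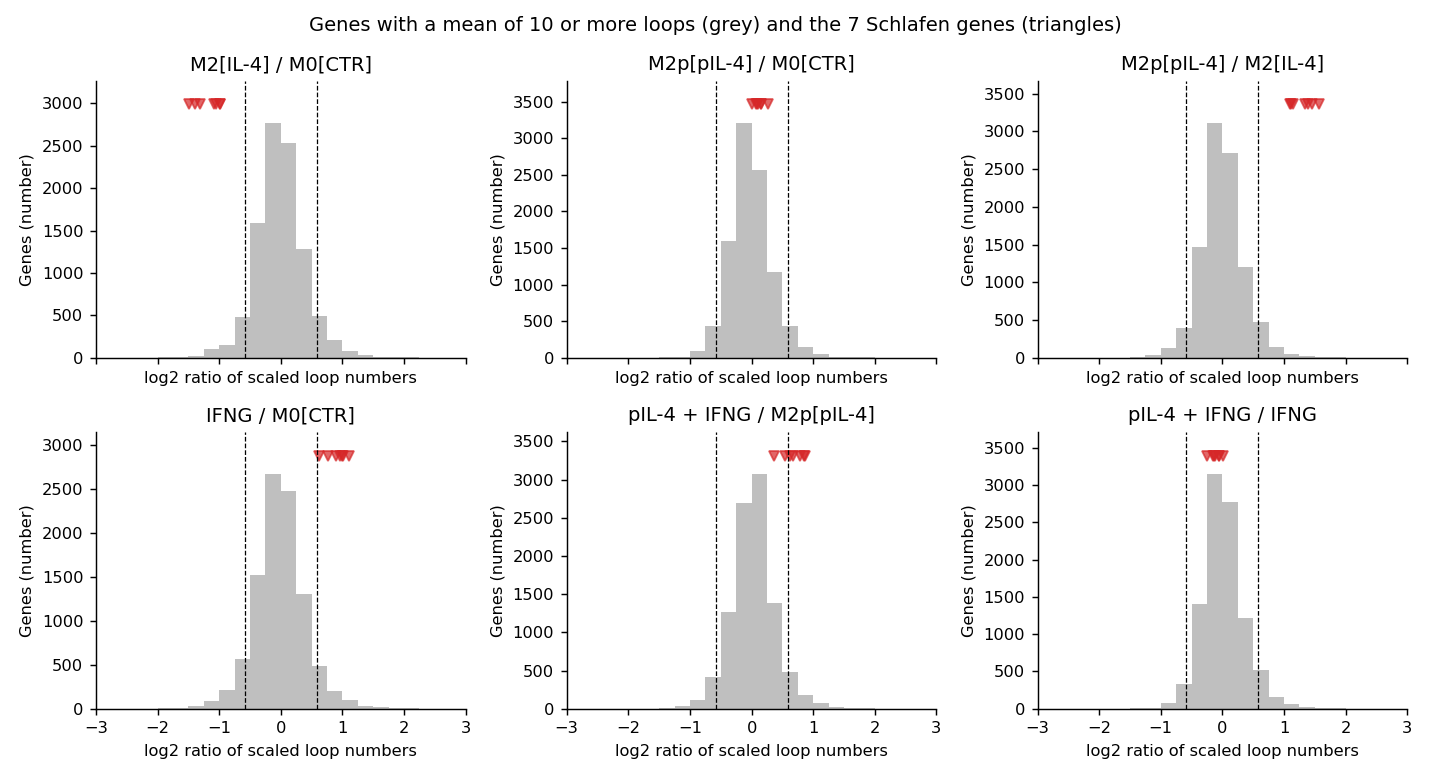
Histograms of the log2 ratio of scaled loop numbers (x axis) over the 9751 genes with a mean of 10 or more loops (y axis, number of genes), 1 panel for each of the 6 comparisons, with the 7 Schlafen genes as triangles and 1.5-fold as dashed lines. The triangles lie left of the lower line for M2[IL-4] / M0[CTR], right of the upper line for M2p[pIL-4] / M2[IL-4] and IFNG / M0[CTR], and between the lines for M2p[pIL-4] / M0[CTR] and pIL-4 + IFNG / IFNG.

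The contacts of a loop called in both lists of a comparison were nearly the same. Scaled by all shared bin pairs, the summed log2 ratio at the cluster was -0.12 (-0.36 to 0.11) over 7 pairs for M2[IL-4] over M0[CTR], -0.03 (-0.20 to 0.14) over 15 for M2p[pIL-4] over M0[CTR], and 0.00 (-0.18 to 0.18) over 12 for M2p[pIL-4] over M2[IL-4]. It was -0.02 (-0.19 to 0.15) over 17 pairs for IFNG over M0[CTR], 0.11 (-0.03 to 0.26) over 20 for pIL-4 + IFNG over M2p[pIL-4], and 0.09 (-0.02 to 0.21) over 31 for pIL-4 + IFNG over IFNG. Every interval includes 0. A loop enters this comparison only if both lists called it, so those that lost or gained most are not in it.

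In 3 of the 6 comparisons 1 bin pair of the cluster was past 1.5-fold. The pair from Unc45b to the Slfn3 TSS had 24 contacts in M2[IL-4] and 39 in M0[CTR], a log2 ratio of -0.70 (-1.50 to 0.07), where 1.41% of all shared pairs were that much lower. A flank pair between Cct6b and Rad51d had 28 in M2p[pIL-4] and 42 in M2[IL-4], or -0.63 (-1.37 to 0.10), where 1.74% of all shared pairs were that much lower. The pair from the body of Unc45b (chr11:82930001-82940000) to the Slfn3 TSS bin had 37 in pIL-4 + IFNG and 22 in IFNG, or 0.77 (-0.03 to 1.60), where 1.82% were that much higher. None of these intervals clears 0.

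In every list, 5 bin pairs were called. From the Unc45b TSS bin to the Slfn4 body, over 270 kb, the contacts were 27 in M0[CTR], 37 in M2[IL-4], 30 after washout in M2p[pIL-4], 35 in IFNG alone and 35 in pIL-4 + IFNG. From the same bin to the Slfn3 TSS bin, over 280 kb, they were 39, 24, 29, 30 and 41. These long contacts between the ends of the cluster were thus present in untreated cells and after each treatment. The adjacent bins of Slfn1 had 82, 71, 84, 79 and 101 contacts. In the flank, the pair from Cct6b to Rad51d over 140 kb had 44, 38, 52, 36 and 47, and the pair from Rffl to Rad51d over 70 kb had 42, 50, 46, 54 and 48. At each pair the exact 95% Poisson intervals of the lists overlap, as for the highest and lowest Slfn1 values, 101 (82.3 to 122.7) and 71 (55.5 to 89.6).

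**Figure D4:**
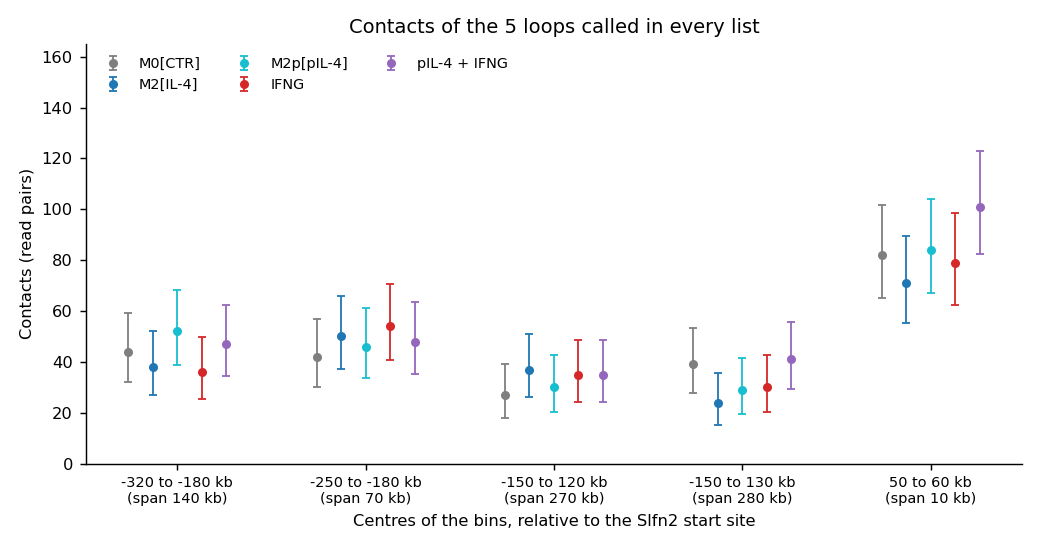
Contacts (y axis, read pairs) of the 5 bin pairs called in every list (x axis, bin centres in kb from the Slfn2 start site), with points for each list and exact 95% Poisson intervals that cover counting error only. The intervals of the 5 lists overlap at every pair, for example from 24 to 41 contacts over 280 kb.

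Part of the cluster is repeated sequence. Of the 45 bins of the window, 6 had no loop in any list, and 4 of them follow each other between Slfn1 and Slfn4 (chr11:83130001-83170000). In these 4 bins, 90.1 to 97.6% of all stretches of 100 bases occur more than once in the genome, so that most reads of that length could not be placed uniquely. The reads of the study were longer, and their placement was not measured. In these 4 bins an absence of loops cannot be told apart from an absence of placeable reads. The annotation shows the repeat: the pseudogenes Gm48468, Gm48469, Gm48477 and Gm48490, each 94 bases long, start 11688, 11667 and 11670 bases apart. Lower shares of repeated sequence were found in the bins of the Slfn4 TSS (27.3%), the Slfn8 TSS (19.1%) and the Slfn9 TSS (15.6%), and in the bins on either side of the Slfn2 TSS bin (60.8 and 48.6%), all of which held a loop in at least 1 list. Without loops that touch a bin over 20% repeated, an alternative chosen after seeing the data, the cluster held 28, 17, 44, 57 and 57 loops. IFNG over M0[CTR] was then 0.96 (0.31 to 1.69). M2[IL-4] over M0[CTR] was -0.81 (-1.81 to 0.07), an interval that includes 0.

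**Figure D5:**
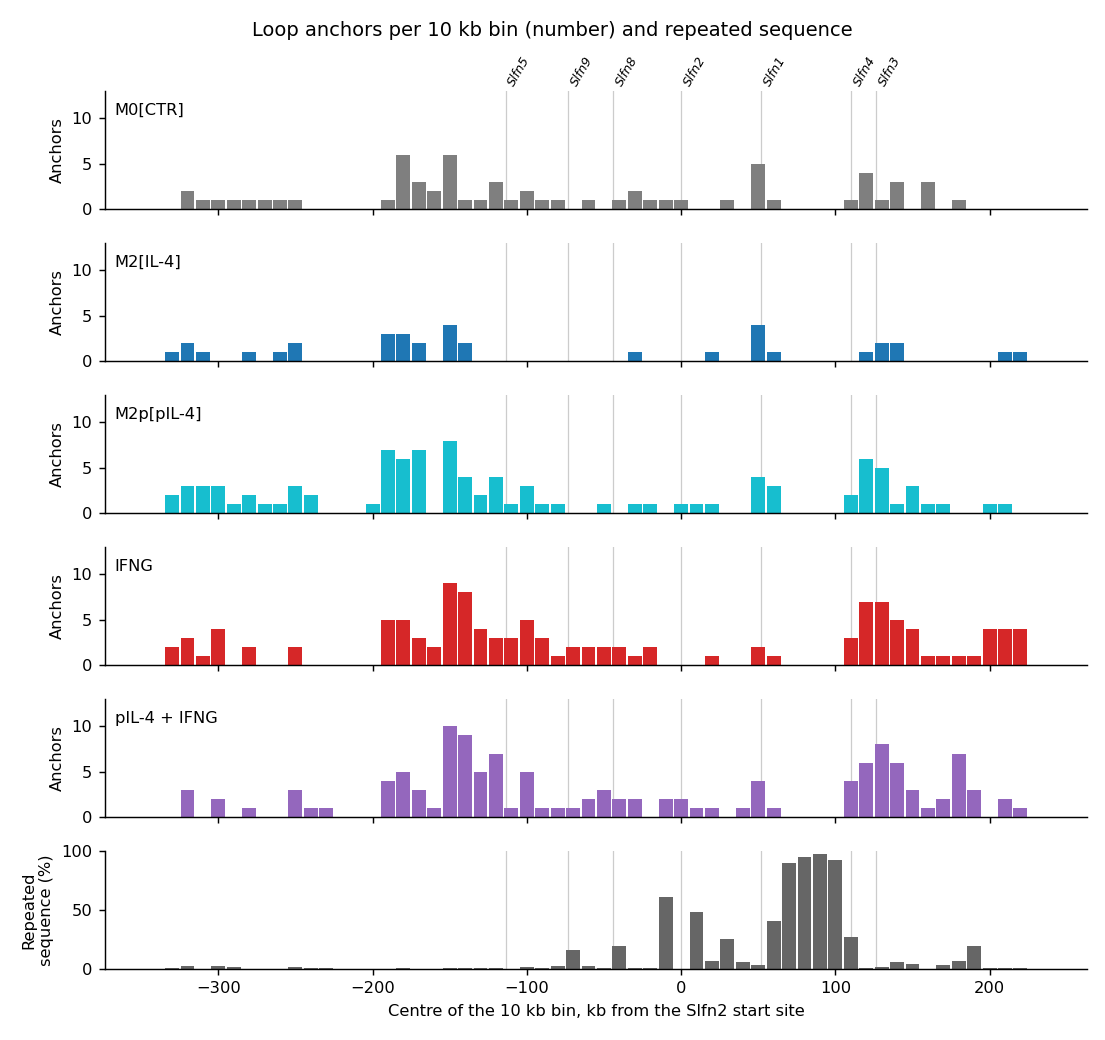
Number of loop anchors in each 10 kb bin (y axes, top 5 panels, 1 per list) and percent of 100-base stretches of the bin that occur more than once in the genome (bottom panel) against the position of the bin centre in kb from the Slfn2 start site (x axis). Anchors gather at both ends of the cluster, up to 10 in the Unc45b bin, and no list has an anchor in the 4 bins where over 90% of the sequence is repeated.

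On one side the loops of the cluster stopped near its border. No loop counted here reached beyond 83290000, on the side of Ap2b1, and 11 partner bins lay outside the window, all of them on the other side, from 82730001 on. The partner genes with the most contacts over the 5 lists were Unc45b (1039), Slfn1 (1029), Rffl (975), an E3 ubiquitin ligase gene, the pair Rad51d and Fndc8 in 1 bin (710), Slfn3 (605), Slfn14 (456), Cct6b and Zfp830 in 1 bin (398) and Slfn8 (383). Pairs of adjacent bins supplied 417 of the contacts of Slfn1, 364 of Slfn14, 243 of Slfn8 and 124 of Rad51d and Fndc8. Much of the sums of Slfn1, Slfn14 and Slfn8 is thus contact with the next bin and not with a distant partner. Only 1, 0, 0, 1 and 1 loops ran from the flank to any of the other segments, and none of these had an anchor in a bin that holds a protein-coding Schlafen gene.

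Neighbouring genes within 300 kb showed where the pattern ended. Slfn14 had 12, 8, 20, 38 and 41 loops within 100 kb, a log2 ratio of 1.55 for IFNG over M0[CTR]. Ap2b1, for an adaptor of clathrin-coated vesicles, had 8, 7, 14, 32 and 35 (1.85). The windows of both genes reach into the cluster and count its loops. Farther out, Rasl10b had 15, 16, 11, 10 and 8 loops (-0.58) and Gas2l2 had 18, 19, 15, 12 and 10 (-0.59), with their lowest values in the IFNG lists. Taf15, an RNA-binding protein gene, had 50, 44, 50, 46 and 44 (-0.16), and Mmp28, a metalloproteinase gene, had 41, 37, 43, 39 and 35 (-0.11). On the other side, Cct6b, Zfp830 and the DNA ligase gene Lig3 shared 9, 8, 21, 14 and 11 loops (0.55). Rffl, Rad51d, Fndc8, Nle1 and Unc45b lie within reach of the members, and had 26 to 28 loops in M0[CTR] and 50 to 56 in IFNG. In all, 8 of the 16 neighbours were at least 1.5-fold higher and 1 was lower in IFNG than in M0[CTR]. Of all genes, 12.9% were that much higher and 11.1% lower.

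Other interferon-stimulated antiviral genes were counted in the same way. The 7 members share many loops and these genes lie on several chromosomes, so the spread of the list cannot be set against that of the members. Of a list of 30, 29 matched the annotation. In IFNG over M0[CTR], 9 were at least 1.5-fold higher and 0 lower, beside 12.9% and 11.1% of all genes. The list median was 0.34 compared with 0.00 over all genes. Among the 9 were Ifit2, Mx1, Oas1a, Oas3, Xaf1, Parp14, Sp100 and Samhd1. Several rest on few loops, with 2 in M0[CTR] and 4 in IFNG at both Xaf1 and Sp100, and 1 and 8 at Oas1a. Samhd1, a dNTPase that restricts viruses, had 11, 12, 12, 23 and 36. Parp14, an ADP-ribosyltransferase, had 11, 11, 21, 25 and 31, and the antiviral GTPase gene Mx1 had 4, 2, 6, 7 and 16. In pIL-4 + IFNG over M2p[pIL-4], 6 were higher, among them Ifit1, Mx1, Oas2, Oas3 and Samhd1, beside 10.7% of all genes. In that comparison 3 were lower (Rsad2, Cmpk2 and Ifi44, with at most 2 loops in a list), beside 9.63% of all genes. In M2[IL-4] over M0[CTR], 6 were lower (Ifit3, Isg15, Mx1, Rsad2, Cmpk2 and Rtp4) and 2 higher (Zbp1 and Ifi35). Of all genes, 10.7% were lower and 12% higher there. In M2p[pIL-4] over M2[IL-4], 8 were higher and 1 was lower, beside 12.5% and 8.79% of all genes. Oasl1 had 32 loops in M0[CTR] and 24 in IFNG and Oasl2 had 30 and 22, short of 1.5-fold. Neighbours in this list, such as Rsad2 and Cmpk2, share loops.

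The genes elsewhere in the genome whose loop numbers were most like the median member, by Euclidean distance of log2 scaled loop numbers over the 5 lists, were Cops4 (0.61), Lin54 (0.63) and Plac8 (0.66) on chromosome 5, Zbtb8b (0.70) on chromosome 4 and Serpina5 (0.72) on chromosome 12. The median member had 19, 10, 26, 40 and 47 loops, Cops4 had 16, 14, 21, 38 and 42, and Plac8 had 18, 16, 24, 44 and 44. Cops4, Lin54 and Plac8 are neighbours and share loops.

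The share of cluster loops found in all lists was below that of the whole list in 3 of the 5 lists. A match in all 5 lists within 25 kb was found for 20 of 32 loops in M0[CTR] (62.5%, 45.3 to 77.1%), 15 of 18 in M2[IL-4] (83.3%, 60.8 to 94.2%), 33 of 50 after washout in M2p[pIL-4] (66.0%, 52.2 to 77.6%), 31 of 61 in IFNG alone (50.8%, 38.6 to 62.9%) and 32 of 64 in pIL-4 + IFNG (50%, 38.1 to 61.9%). The whole lists stood at 81.0, 78.3, 76.2, 80.0 and 76.1%. The share was below that of the whole list in M0[CTR], IFNG and pIL-4 + IFNG beyond the interval. In M2p[pIL-4] and M2[IL-4] the whole-list share lay within the interval, and in M2[IL-4] the cluster's share was the higher one. A match in all lists needs a loop among the 18 of M2[IL-4], which limits the shares of the longer lists. Of the 129 bin pairs, 81 were called in 1 list, among them 21 in IFNG only and 28 in pIL-4 + IFNG only. Another 8 were called in both of these and in no other list. Identical bins were limited over the whole lists too. IFNG and M0[CTR], with 55012 and 53424 loops, shared 25079 bin pairs, 17 of them at the cluster. The share of single-list bin pairs over the whole lists was not computed, so these counts do not mark loops particular to a treatment.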

How the data were processed

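Hi-C libraries of 5 groups with 2 replicates each, assigned from the sample titles, were analysed as 5 loop lists, 1 per group. The authors mapped reads with bowtie2 inside HiC-Pro (the nf-core/hic pipeline), balanced the maps by Knight-Ruiz and called HICCUPS loops at 25 kb, and the submitters' processing notes name FastQC, Bowtie2, HiC-Pro, Juicer, HOMER and mm10. As deposited, each line held a pair of 10 kb bins and a whole-number contact count with no normalization, at least 5 per loop. The caller and threshold of these 10 kb lists are not given in the sources used here, and a bin pair below that threshold has no value. No sample columns were left unused and no values per replicate were analysed here. Library depth is not in the lists.

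Loop numbers were multiplied by the mean list length over the list's own, and log2 ratios took a pseudocount of 1 (the intervals none). Contacts were scaled by all bin pairs called in both lists. With 1 list per group no test was run, and a difference was called at 1.5-fold. Intervals are exact binomial for ratios, exact Poisson for contacts and Wilson for shares, at 95%. The members, lists and rules were chosen with earlier results of these data known. Named were the members, Slfn14, neighbours within 300 kb, the 10 partner genes with the most contacts, antiviral genes past 1.5-fold, the 5 most like genes off the cluster by 1 Mb, bin pairs called in all 5 lists, and of the bin pairs with 20 or more contacts in both lists those past 1.5-fold. Some genes that these rules name are not reported here. Others are said to have been chosen after their values were seen, as were the segments, the patches, Oasl1 and Oasl2.

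Repeated sequence was counted as 100-base stretches found more than once on either strand of the 21 nuclear chromosomes of GRCm38.p6. Promoter identity is over a global alignment of the 250 bases before the start. Counting was tested on simulated data, where the planted loop numbers were recovered at 200 of 200 genes and 95.8% of 500 intervals held the true ratio. The counts simulated for the intervals were independent, unlike touching loops, so this share does not carry over to the cluster. Python 3.11.15, numpy 2.4.6, scipy 1.17.1, Biopython 1.88 and matplotlib 3.10.9 were used. Alternatives were windows of 50 and 25 kb, loops without adjacent bins, with both anchors inside or merged where they touch, equal list lengths, no scaling, scaling by chromosome 11, a pseudocount of 0.5 and other matching distances.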

Additional observations from a re-analysis of the deposited data

How the results depend on the processing

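Merging touching bin pairs turned IFNG over M0[CTR] to -0.43 and moved pIL-4 + IFNG over IFNG to 0.56, since a wide field of touching pairs then counts once. Among loops under 200 kb, an alternative chosen after seeing the data, pIL-4 + IFNG over M2p[pIL-4] was -0.19. Contacts of pIL-4 + IFNG over IFNG were 0.23 where all 5 lists had called the bin pair. The share found in all 5 lists depended on the matching. In the same bins it was 15.6% in M0[CTR], 27.8% in M2[IL-4], 10.0% after washout in M2p[pIL-4], 8.20% in IFNG alone and 7.81% in pIL-4 + IFNG. Within 50 kb it was 78.1% in M0[CTR], 82.0% in M2p[pIL-4], 68.9% in IFNG alone and 73.4% in pIL-4 + IFNG. With a 50 kb window it was 41.4% in M2p[pIL-4] and 38.3% in IFNG. The other 102 of 117 alternative values, over 17 results, neither crossed 1.5-fold in the opposite direction nor moved beyond the counting interval of the reported value. Among them, however, pIL-4 + IFNG over M2p[pIL-4] passed 1.5-fold at 0.86 with a 50 kb window and with both anchors inside, at 0.74 with a 25 kb window and at 0.91 among loops of 200 kb or more, M2p[pIL-4] over M0[CTR] passed it at 0.63 without scaling, and IFNG over M0[CTR] fell short of it at 0.46 among loops under 200 kb. M2[IL-4] over M0[CTR] and M2p[pIL-4] over M2[IL-4] kept their sign in every alternative of loop number, but not always with an interval clear of 0. With touching bin pairs merged, both intervals included 0. For M2[IL-4] over M0[CTR] the interval also did so without scaling (-1.75 to 0.05) and without repeated bins (-1.81 to 0.07). The same held among loops of 200 kb or more (-2.99 to 0.15) and under 200 kb (-1.92 to 0.40). Signs differed in 2 alternatives for M2p[pIL-4] over M0[CTR] and 2 for pIL-4 + IFNG over IFNG, which were 0.29 and -0.21 as reported.

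No paired analysis was possible because the lists merge the replicates, and leaving out a replicate was not run for the same reason. The low contact numbers limit single loops, and even 37 against 22 contacts gave an interval that includes 0.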
